A study of Mus musculus with 9 samples.

Results

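The mitochondrial genome of the mouse was read here through its 37 annotated genes, the rows of the deposited gene table whose symbol starts with mt-, out of 43644 genes in all. They comprise 13 messenger RNAs (mRNAs), 2 ribosomal RNAs (rRNAs) and 22 transfer RNAs (tRNAs), and these classes are described apart. The tissue was the coronal suture, the fibrous joint across the top of the skull, taken from C57BL/6 mice 7 months old. Wild-type mice without surgery (WT), Twist1+/- mice without surgery (MUT) and Twist1+/- mice that had suture regeneration surgery at 1 month (REG) gave 3 libraries each. Twist1 encodes a transcription factor of the skull mesenchyme, and in mice the loss of 1 copy is a known model of coronal synostosis. No surgery control was included for the operated mice, and nothing in the labels tells whether a library stands for 1 animal or for several.

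Mitochondrial DNA is a small circle that is transcribed from both strands into long RNAs carrying many genes. Most mRNAs and both rRNAs are flanked by tRNAs, and enzymes that cut the tRNAs out release the RNAs between them. The mRNAs encode core subunits of respiratory complexes I, III and IV and of the ATP synthase (complex V), the rRNAs build the mitochondrial ribosome, and the tRNAs serve translation inside the organelle. All other proteins of mitochondria, including the polymerase that makes these RNAs, come from nuclear genes.

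All 13 mitochondrial mRNAs and both rRNAs were lower in MUT than in WT, by 2.79 to 3.72 on the log2 scale. Of these 15, 14 were higher in REG than in MUT, with mt-Nd4l the exception. No member differed between REG and WT at the threshold used. The tRNAs did not follow the mRNAs: of 20 tested, 3 were higher and 2 lower in MUT than in WT. Over all genes tested 20.5% were higher and 14.6% lower, so neither tRNA count is a larger share.

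The values below are the authors' deposited values, which are read numbers scaled to the upper quartile of each library, and estimated reads are what these values give when the scaling is undone. The WT libraries held between 16356391 and 20019712 estimated reads, the MUT libraries between 2945636 and 10894209, and the REG libraries between 18276494 and 39377876. Some libraries stood apart before any mitochondrial gene was considered. In the labels, the matrix name given for MUT replicate 2 does not name its group, the name for REG replicate 3 has another form than those for REG replicates 1 and 2, and no REG name carries the number of its title. Libraries were assigned as the labels state. Background, estimated from olfactory and vomeronasal receptor genes that a suture is not known to use, was 0.614% to 0.866% of the reads in WT and 0.509% to 0.849% in REG. In MUT it came to 23.2%, 7.86% and 21.0% in replicates 1, 2 and 3. A pair of repeat-like predicted genes took 28215 to 127090 RPM (reads scaled to a common library total) in MUT against 4.75 to 41.7 RPM in the other groups. The 8 osteoblast and suture genes together took 53443 to 83042 RPM in the WT libraries, 13673, 48397 and 7909 RPM in the MUT libraries, and 33094, 35693 and 74085 RPM in the REG libraries. As a sum, the tissue's markers were thus present in every library but lowest in MUT replicates 1 and 3. The sum hides single genes: the 3 of smallest p, Postn, Prrx1 and Runx2, were called lower in MUT than in WT. Their log2 changes were -5.85, -2.68 and -2.74. With MUT replicate 2 as the only MUT library they were -5.60, -2.38 and -2.57. The 12 skeletal muscle genes took 891 and 1741 RPM in REG replicates 1 and 2, and 18.2 to 148 in the other 7 libraries. The 8 neutrophil genes took 429 to 2244 RPM in WT, 2241 to 4279 in MUT and 3020 to 10926 in REG, the 7 erythroid genes found 557 to 1700, 3338 to 3484 and 2283 to 4668, the 7 adipocyte genes 19.7 to 37.0, 83.1 to 208 and 41.0 to 87.0, and the 8 osteoclast genes 823 to 1483, 691 to 1053 and 1855 to 5009. Other abundant RNAs were lower in MUT beside the mitochondrial ones: the 4 nuclear-retained RNAs (such as Malat1) took 9972 to 14865 RPM in WT and 1874 to 3315 in MUT, with 3 of 4 called lower and a median log2 change of -2.98, and ribosomal RNA-like rows took 33225 to 35514 and 5348 to 9612 RPM, with 3 of 4 tested called lower and a median of -3.49. No marker of these lists that is in the table was without reads in all libraries. In bulk tissue, fewer cells of a type and less RNA per cell cannot be told apart, and the part of these differences in the results below was not tested. Twist1 itself, read as a check of the labels, stood at 16.2, 23.3 and 23.1 in the WT libraries. Its MUT values were 0.987, 8.08 and 0.548, with MUT replicate 2 the highest, and its REG values were 3.76, 9.19 and 12.2. The values of the 3 WT libraries thus lay above those of all 6 Twist1+/- libraries. MUT was lower than WT by 3.26 ± 0.76 on the log2 scale (SE, limma adjusted p = 0.0109), and REG against WT did not pass (-1.40, adjusted p = 0.567).

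The sequences of the 6 tRNAs that passed the test in any comparison are shown first, because they are short enough to be read whole, and because 3 of them moved against the mRNAs (mt-Tg, mt-Tv and mt-Tm) and 3 with them. They come from GENCODE M21 (GRCm38), 5′ to 3′ on the strand of the gene and with T for U, and capitals mark the anticodon.
mt-Tg: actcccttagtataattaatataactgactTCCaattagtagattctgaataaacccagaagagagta
mt-Tv: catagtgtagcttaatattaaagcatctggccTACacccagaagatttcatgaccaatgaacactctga
mt-Tm: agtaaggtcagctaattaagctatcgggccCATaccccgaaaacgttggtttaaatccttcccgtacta
mt-Ts1: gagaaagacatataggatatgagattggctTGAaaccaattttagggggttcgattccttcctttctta
mt-Te: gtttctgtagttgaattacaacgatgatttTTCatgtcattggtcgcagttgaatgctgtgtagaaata
mt-Ty: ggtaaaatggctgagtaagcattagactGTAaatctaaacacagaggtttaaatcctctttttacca
These are the tRNAs for glycine (chrM:9391-9458, plus strand), valine (chrM:1025-1093, plus), methionine (chrM:3845-3913, plus), serine (chrM:6870-6938, minus), glutamate (chrM:14071-14139, minus) and tyrosine (chrM:5260-5326, minus). The first 3 sit directly against their neighbours on the circle: mt-Tg fills the space between mt-Co3 and mt-Nd3, mt-Tv that between the rRNA genes, and mt-Tm ends at the base before mt-Nd2. All tRNA genes are 59 to 75 bases long and the reads had 75 cycles, so a read on a tRNA can also reach the gene beside it. How such reads were assigned, and whether strand was used, the sources used here do not say.

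The annotation also lets neighbouring mRNAs share bases, where their reads cannot be told apart. On the plus strand the longest such overlaps are 43 bases between mt-Atp8 and mt-Atp6 and 7 between mt-Nd4l and mt-Nd4, and these junctions are shown because the values of both pairs are compared below. mt-Atp6 and mt-Co3 share 1 base, and mt-Nd5 and the minus-strand mt-Nd6 share 14. Capitals mark the shared bases (windows chrM:7915-7981 and chrM:10155-10185, plus strand), with 12 bases on each side.
mt-Atp8 and mt-Atp6: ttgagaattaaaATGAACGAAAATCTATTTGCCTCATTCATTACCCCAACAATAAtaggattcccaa
mt-Nd4l and mt-Nd4: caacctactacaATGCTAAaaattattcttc
In each window the shared stretch opens with ATG, the start codon of the downstream gene.

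As a share of all estimated reads, the 13 mRNAs came to 1.09%, 1.57% and 1.15% in the WT libraries (mean ± SD 1.27% ± 0.264, n = 3). They came to 0.279%, 0.363% and 0.217% in the MUT libraries (0.286% ± 0.0735) and to 0.648%, 1.29% and 1.05% in the REG libraries (0.997% ± 0.326). Every MUT library was below every other library. The rRNAs behaved alike, with 8.86%, 11.96% and 9.44% in WT (10.1% ± 1.65), with 1.90%, 4.35% and 1.67% in MUT (2.64% ± 1.48) and with 11.7%, 14.2% and 8.64% in REG (11.5% ± 2.76). The tRNAs took far fewer reads and the order was the opposite. Their share was 0.0116%, 0.00987% and 0.0119% in the WT libraries, 0.0984%, 0.0649% and 0.122% in the MUT libraries, and 0.0565%, 0.0573% and 0.00579% in the REG libraries. All MUT libraries lay above all WT libraries, while REG replicates 1 and 2 lay between these groups and REG replicate 3 below WT. Per 1000 mRNA reads there were 10.6, 6.27 and 10.3 tRNA reads in WT, as against 353, 179 and 562 in MUT and 87.2, 44.2 and 5.51 in REG. These sums are given as a description, without a test.

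**Figure D1:**
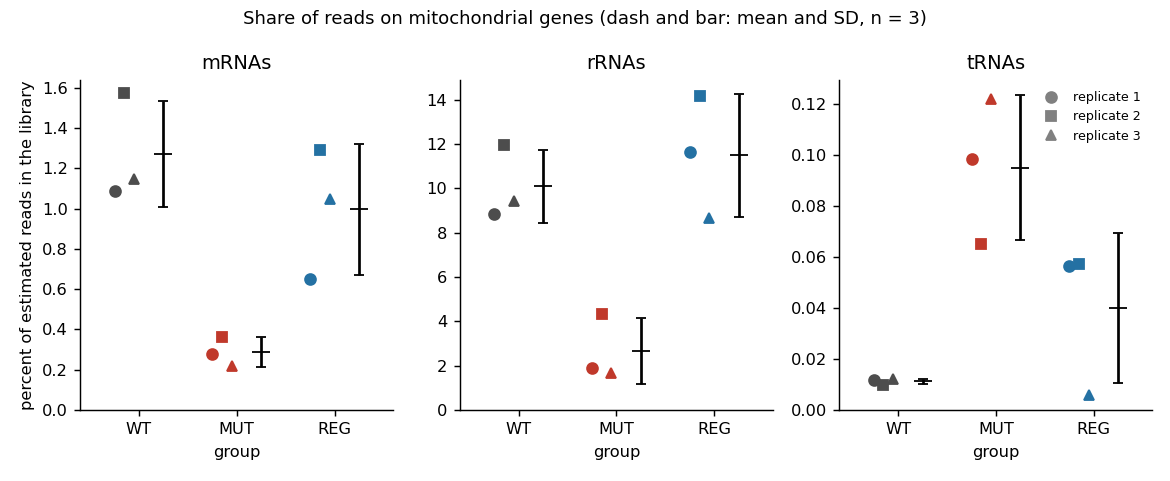
Percent of all estimated reads that fell on mitochondrial mRNAs, rRNAs and tRNAs (vertical axes, one panel per class) in each library, by group; points are libraries and bars the mean and SD of 3 libraries. For mRNAs and rRNAs the 3 MUT points lie lowest, and for tRNAs they lie highest.

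The rRNAs were the most abundant members by far. mt-Rnr1, the RNA of the small mitochondrial ribosomal subunit (chrM:70-1024), stood at deposited values of 15882, 23752 and 16722 in the WT libraries, 1037, 3861 and 856 in the MUT libraries, and 13362, 14532 and 12029 in the REG libraries. mt-Rnr2, the RNA of the large subunit (chrM:1094-2675), stood at 24988, 39318 and 28475 in WT, at 2348, 8920.0 and 1901 in MUT, and at 29412, 33473 and 26465 in REG. For both, all MUT values lay below all others, and MUT replicate 2 was the highest of the MUT libraries. mt-Rnr1 fell in MUT against WT by 3.62 ± 0.53 on the log2 scale (SE, limma adjusted p = 0.00198) and mt-Rnr2 by 3.15 ± 0.54 (adjusted p = 0.00336). In REG against MUT they rose by 3.14 ± 0.53 (adjusted p = 0.00321) and 3.12 ± 0.54 (adjusted p = 0.00350). Among all 29107 genes tested, 14.6% were lower and 20.5% higher in MUT than in WT, and 11.8% were higher and 24.8% lower in REG than in MUT. These shares are the background for every count of members below that was taken on the deposited scale. The median change over all genes was 0.18 for MUT against WT and -0.36 for REG against MUT, and the rRNA medians were -3.38 and 3.13. The size of both depended on the scaling. For MUT against WT the rRNA median was -3.75 with trimmed-mean scaling, -1.24 with quantile scaling (where mt-Rnr2 did not pass, adjusted p = 0.0887), -2.13 with scaling to total reads, -2.26 with scaling to non-mitochondrial reads and -1.88 after background subtraction. For REG against MUT it was 3.83, 1.51, 2.23, 2.38 and 1.98, and mt-Rnr2 again did not pass with quantile scaling (adjusted p = 0.0538).

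The proportion between the 2 rRNAs was not the same in the groups. There were 1.57, 1.66 and 1.70 mt-Rnr2 reads per mt-Rnr1 read in WT, as against 2.26, 2.31 and 2.22 in MUT and 2.20, 2.30 and 2.20 in REG. All 6 Twist1+/- libraries, operated or not, thus lay above all 3 WT libraries, and the library scaling cannot move a ratio taken within a library. Per length, in RPKM (RPM per kilobase of transcript), the 2 rRNAs were nearly equal in WT, at 36041, 47145 and 36575 for mt-Rnr1 and 34230, 47113 and 37597 for mt-Rnr2. In MUT, mt-Rnr1 was at 6107, 13750 and 5431 RPKM and mt-Rnr2 at 8350, 19178 and 7284 RPKM.

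All 13 mRNAs were called lower in MUT than in WT, with log2 changes from -3.72 to -2.79 and a median of -3.32. For each of the 13, the highest MUT library lay below the lowest WT library, which held for 25.9% of all genes tested. Even in MUT replicate 2, the library with the fewest reads, no mRNA rested on fewer than 139 estimated reads. The count did not rest on one library: it stayed at 13 when any 1 of the 9 libraries was left out. With MUT replicate 2 as the only MUT library, its spread taken from the other groups, 4 mRNAs and 1 rRNA were called, the mRNA median was -2.35, and the median of all genes was -0.33.

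Complex I, which passes electrons from NADH to ubiquinone, has 7 subunits encoded here. mt-Nd1 (chrM:2751-3707), a membrane subunit at the ubiquinone site, stood at 369, 665 and 499 in WT, at 43.4, 80.0 and 21.1 in MUT, and at 242, 353 and 399 in REG. mt-Nd2 (chrM:3914-4951), one of the proton-pumping subunits, was at 250.0, 377 and 274 in WT, at 27.9, 80.2 and 25.2 in MUT, and at 68.0, 327 and 213 in REG. mt-Nd3 (chrM:9459-9806), a small membrane subunit, was at 40.5, 49.8 and 41.0 in WT, at 3.16, 21.6 and 2.98 in MUT, and at 38.5, 19.9 and 29.0 in REG. In the last 2, 1 REG library fell below MUT replicate 2.

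mt-Nd4l (chrM:9877-10173), the smallest complex I subunit here, was at 61.3, 84.7 and 44.2 in WT, at 7.65, 13.9 and 4.66 in MUT, and at 9.37, 11.4 and 34.1 in REG. mt-Nd4 (chrM:10167-11544), a proton-pumping subunit that shares bases with it, was at 645, 966 and 622 in WT, at 54.4, 121 and 34.7 in MUT, and at 154, 298 and 479.6 in REG. mt-Nd5 (chrM:11742-13565), the longest mRNA of the genome, was at 674, 1253 and 785 in WT, at 75.4, 126 and 58.0 in MUT, and at 225, 373 and 694 in REG. REG replicates 1 and 2 were thus close to the MUT libraries for mt-Nd4l, and REG replicate 3 was the highest of the REG libraries in all 3 of these genes. mt-Nd6 (chrM:13552-14070), the only mRNA on the minus strand, was at 222, 386 and 262 in WT, at 29.7, 52.6 and 15.3 in MUT, and at 46.0, 157 and 198 in REG.

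Against WT, the complex I mRNAs of MUT fell by between 2.79 ± 0.66 for mt-Nd3 (SE, limma adjusted p = 0.0115) and 3.57 ± 0.55 for mt-Nd4 (adjusted p = 0.00217). The minus-strand mt-Nd6 fell by 3.27 ± 0.61 (adjusted p = 0.00461), within the range of the plus-strand genes. In REG against MUT, 6 of the 7 rose, from 1.95 ± 0.61 for mt-Nd6 (adjusted p = 0.0319) to 2.94 ± 0.50 for mt-Nd1 (adjusted p = 0.00310). mt-Nd4l did not pass, with a change of 0.93 ± 0.56 (adjusted p = 0.225).

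Complex III, which hands electrons to cytochrome c, has 1 subunit from this genome. mt-Cytb (chrM:14145-15288), its cytochrome b, stood at 749, 1225 and 853 in WT, at 60.02, 149 and 38.0 in MUT, and at 302, 709 and 672 in REG. It fell in MUT by 3.72 ± 0.54 (SE, limma adjusted p = 0.00193), the largest change among the mRNAs, and rose in REG against MUT by 2.90 ± 0.54 (adjusted p = 0.00454).

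Complex IV, cytochrome c oxidase, takes its 3 catalytic core subunits from here. mt-Co1 (chrM:5328-6872), which holds the oxygen-reducing site, stood at 1138, 1844 and 1149.9 in WT, at 112, 199 and 91.5 in MUT, and at 569, 893 and 1106 in REG. mt-Co2 (chrM:7013-7696), which receives the electrons, was at 245, 341 and 235 in WT, at 22.4, 53.4 and 20.1 in MUT, and at 147, 271 and 176 in REG. mt-Co3 (chrM:8607-9390) was at 192, 308 and 214 in WT, at 18.0, 60.8 and 11.7 in MUT, and at 310.3, 426 and 184 in REG. For all 3 genes every REG library lay above every MUT library, and for mt-Co3 REG replicates 1 and 2 were also above all WT libraries. MUT was lower than WT by 3.40 ± 0.43 for mt-Co1 (SE, limma adjusted p = 0.00124), with 3.21 ± 0.45 for mt-Co2 (0.00161) and 3.29 ± 0.59 for mt-Co3 (0.00382). REG was higher than MUT by 2.70 ± 0.43, 2.71 ± 0.45 and 3.60 ± 0.59 (adjusted p = 0.00251, 0.00282 and 0.00275).

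Complex V makes ATP, and 2 subunits of its membrane part are encoded here. mt-Atp6 (chrM:7927-8607), which lines the proton channel, stood at 329, 592 and 356 in WT, at 27.1, 80.0 and 26.4 in MUT, and at 225, 472 and 386 in REG. mt-Atp8 (chrM:7766-7969), a short subunit beside it, was at 117, 207 and 162 in WT, at 15.1, 30.9 and 7.82 in MUT, and at 41.5, 77.2 and 105 in REG. The REG values of mt-Atp6 overlapped with WT, whereas those of mt-Atp8 all lay below WT. mt-Atp6 fell in MUT against WT by 3.40 ± 0.51 and mt-Atp8 by 3.32 ± 0.54 (SE, limma adjusted p = 0.00206 and 0.00270), and in REG against MUT they rose by 3.15 ± 0.51 and 2.14 ± 0.54 (adjusted p = 0.00270 and 0.0134).

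**Figure D2:**
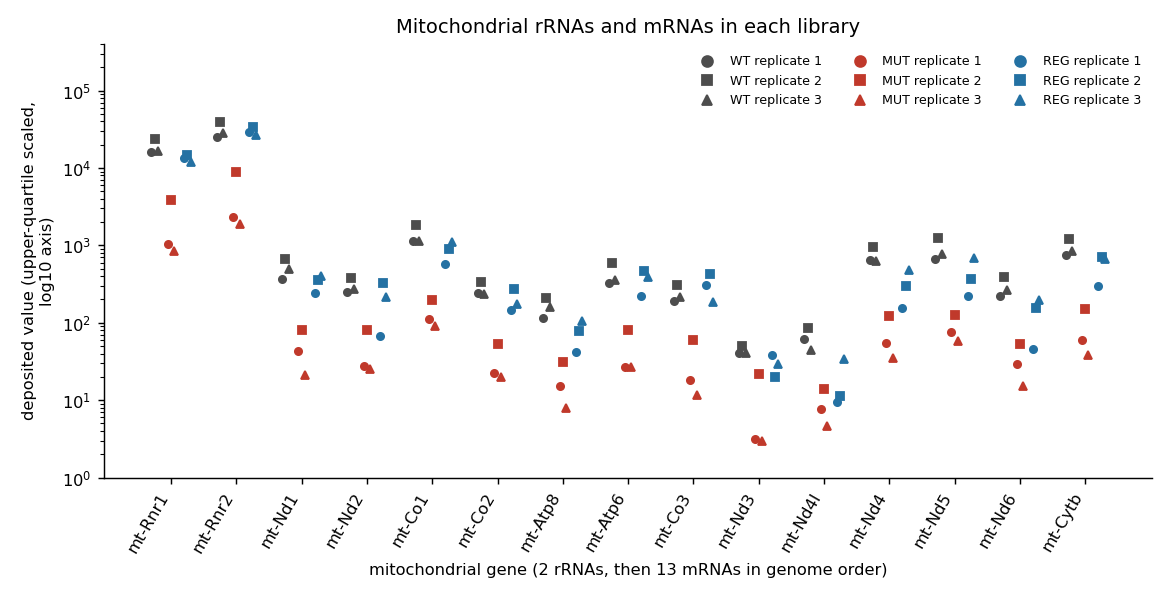
Deposited values (log10 axis) of the 2 rRNAs and 13 mRNAs in each of the 9 libraries, coloured by group. For each gene the 3 MUT points lie below the 3 WT points, and MUT replicate 2 is the highest of the MUT libraries throughout.

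The size of the fall in MUT depended on how the libraries were set on one scale, but its direction did not. On the deposited scale the mRNA median lay 3.50 below the median of all genes. The mRNA median was -3.67 with trimmed-mean scaling and -2.13 with quantile scaling. It was -2.09 with scaling to total reads and -2.22 with scaling to the reads of all genes but the mitochondrial ones. The all-gene medians under these scalings were -0.30, -0.13, 1.11 and 0.99, so the mRNA median lay 3.36, 2.00, 3.20 and 3.21 below that of all genes tested. This distance also depended on the filter. With one 10 times stricter on the deposited scale, the median of the 11449 genes tested was -0.99. The mRNA median lay 2.33 below it. The balance of calls over all genes moved with the scaling as well, from 5964 higher and 4261 lower on the deposited scale to 2958 and 5610 under trimmed-mean, 2537 and 2501 under quantile, 11734 and 876 under total-read scaling and 10257 and 1013 under scaling to non-mitochondrial reads. All 13 mRNAs were called under these scalings except that 12 were under quantile scaling. After subtraction of the background estimated from receptor genes the mRNA median was -1.85 and 9 mRNAs were called, with mt-Nd2, mt-Nd3, mt-Nd4l and mt-Nd6 no longer past the threshold. All genes were then called 3425 higher and 853 lower. Their median was 0.28, and the mRNA median lay 2.13 below it.

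**Figure D3:**
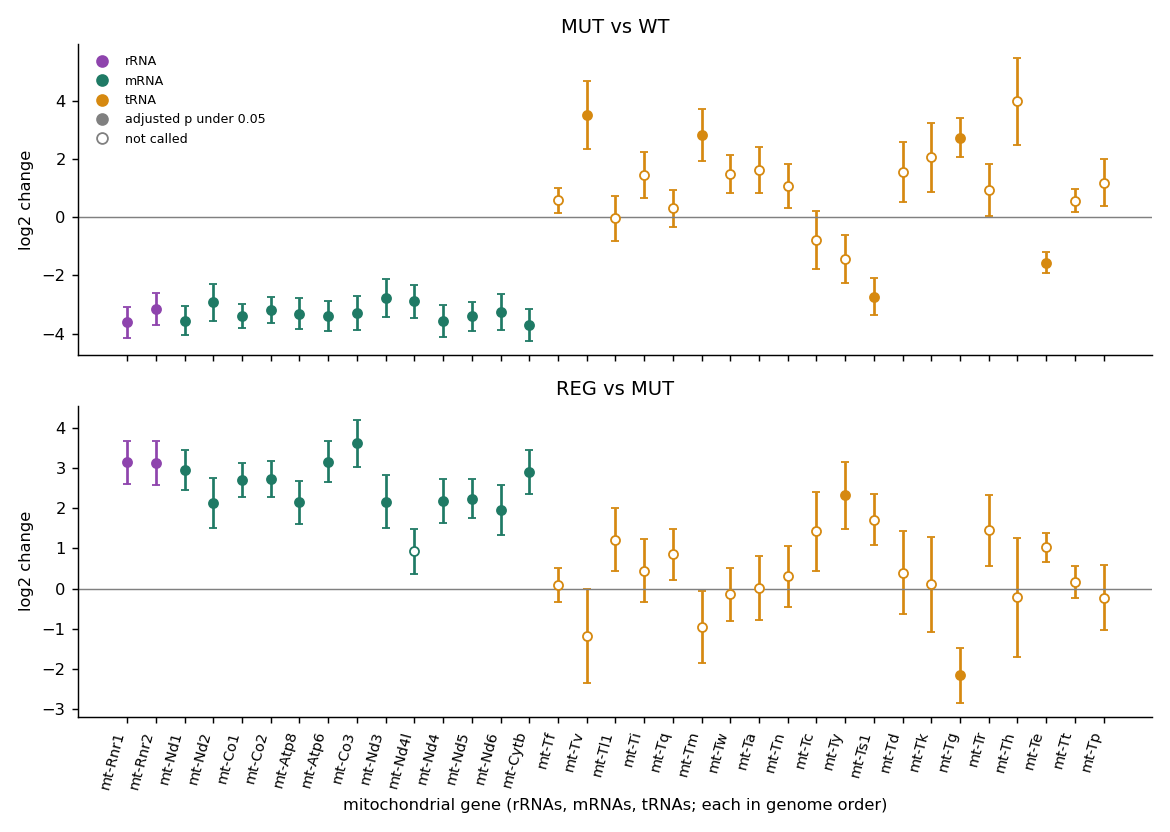
Log2 change with its standard error (vertical axes) for the 35 members tested (horizontal axis, by class in genome order), for MUT against WT and for REG against MUT; filled points passed adjusted p under 0.05 in limma. The mRNAs and rRNAs lie between -3.72 and -2.79 for MUT against WT, and the tRNAs scatter on both sides of 0.

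In REG against MUT, 12 mRNAs and both rRNAs were called higher, against 11.8% of all genes, with an mRNA median of 2.23 and a range from 0.93 to 3.60. For 9 of the 13 every REG library lay above every MUT library, as for 14% of all genes tested, the others being mt-Nd2, mt-Nd3, mt-Nd4l and mt-Nd6. This comparison shares its MUT libraries with the one above, so the opposite signs are not independent of each other. The count fell to 7 mRNAs when MUT replicate 1 or MUT replicate 3 was left out, and to 0 mRNAs and 0 rRNAs with MUT replicate 2 as the only MUT library. With REG replicate 3 as the only REG library, whose spread is then assumed to be that of the other groups, 12 mRNAs were called and the median was 2.94. REG replicate 3 held 114 RPM of the skeletal muscle genes, against 95.9 to 125 RPM in the MUT libraries, and 1855 RPM of the 8 osteoclast genes, against 691 to 1053 RPM. The part of these cells in the rise was not tested. Under trimmed-mean, quantile, total-read and non-mitochondrial scaling the mRNA median was 2.93, 1.79, 1.34 and 1.49, and 13, 6, 9 and 9 mRNAs were called. After background subtraction the median was 1.12, 6 mRNAs were called, and mt-Nd4l was at -0.16. Calls over all genes changed in balance too, from 3432 higher and 7221 lower to 6062 and 3197, 1868 and 2303, 982 and 11455, and 1177 and 9971, and to 819 and 3154 after background subtraction.

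REG and WT differed for no member, nor for any gene of the table, at adjusted p under 0.05 (0% higher and 0% lower). At an unadjusted p under 0.05 limma counted 3 mRNAs (mt-Nd4l, mt-Nd4 and mt-Nd5, all lower in REG), 0 rRNAs and 3 tRNAs, and the authors' deposited table also has 0 members at FDR under 0.05 for this pair. The mRNA medians lay on the lower side, at -0.81 for REG against WT with all genes at -0.18, and for 7 of the 13 mRNAs every REG library was below every WT library, as for 12.1% of all genes tested. Among the mRNAs the largest difference was that of mt-Nd4l, -1.96 ± 0.56 (SE, limma adjusted p = 0.498). A p above the threshold does not show that the groups were equal. The result depended on REG replicate 3: without it, 1 mRNA (mt-Nd4l, -2.53, limma adjusted p = 0.0280) and 10 tRNAs (higher in REG) were called, while over all genes 410 were higher and 1194 lower.

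The mix of the mRNAs was compared within each library as the percent of the 13 mRNAs' reads that each one took, which no scaling of the libraries can change. mt-Co1 took the most, at about 22% in WT. Differences between MUT and WT in this mix were small beside the common fall. mt-Nd2 took 4.97%, 4.54% and 4.98% in WT and 5.63%, 7.51% and 7.05% in MUT, and mt-Cytb took 14.9%, 14.8% and 15.5% in WT and 12.1%, 13.9% and 10.6% in MUT. mt-Nd4l was the other gene whose shares did not overlap, at 1.22%, 1.02% and 0.803% in WT and 1.54%, 1.30% and 1.30% in MUT.

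In some genes the share in REG stood apart from both other groups, and in others from WT only. mt-Nd4l took 0.394%, 0.260% and 0.730% there, below all other libraries. mt-Atp6 took 9.46%, 10.8% and 8.25% in REG, against 6.54%, 7.14% and 6.47% in WT and 5.45%, 7.49% and 7.40% in MUT, so it lay above all of them. mt-Co3 took 13.1%, 9.71% and 3.93% in REG and 3.82%, 3.71% and 3.90% in WT, with REG replicate 3 at the level of WT. It overlapped between REG and MUT (3.63%, 5.68% and 3.27% in MUT). mt-Nd4 took 6.48%, 6.78% and 10.3% in REG and 12.8%, 11.6% and 11.3% in WT, and it too overlapped with MUT (11.0%, 11.3% and 9.72%). mt-Nd6 took 1.93%, 3.58% and 4.22% in REG and 4.41%, 4.66% and 4.77% in WT. With 5.99%, 4.92% and 4.28% in MUT, its REG shares lay below all other libraries, though narrowly for REG replicate 3. mt-Atp8 took 1.74%, 1.76% and 2.25% in REG, below WT (2.32%, 2.49% and 2.94%) but overlapping with MUT (3.05%, 2.89% and 2.18%). In mt-Co3, mt-Nd4 and mt-Nd6 it was REG replicate 3 that lay nearest to WT, and it also held the least muscle marker RNA of the REG libraries. The part of that in the mix was not tested.

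**Figure D4:**
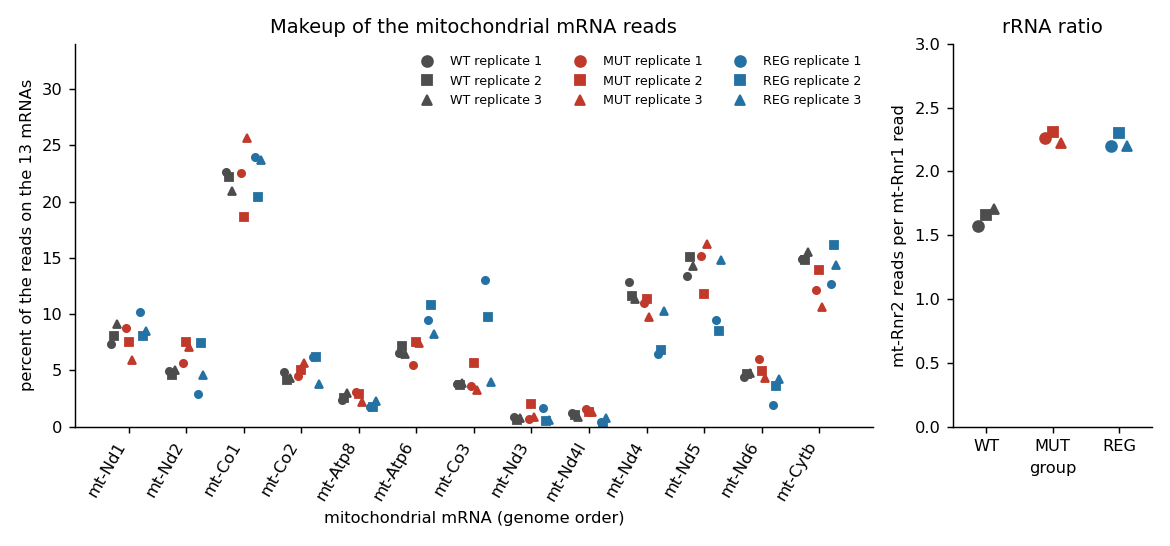
Percent of the 13 mRNAs' estimated reads on each mRNA, per library and group, with mt-Rnr2 reads per mt-Rnr1 read beside it. All 3 REG libraries lie above the others for mt-Atp6 and below them for mt-Nd4l, and the rRNA ratio is 1.57 to 1.70 in WT and 2.20 to 2.31 in the Twist1+/- groups.

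Nuclear copies of mitochondrial genes touch these shares. In the GENCODE M21 transcripts, 12 of the 13 mRNAs (not mt-Nd1) share 31-base stretches with a nuclear transcript, and 7 predicted genes on chromosome 1 are near-identical to part of mt-Co1, mt-Co2, mt-Co3, mt-Atp6, mt-Nd3, mt-Nd4l or mt-Nd4. Reads that fit both can be counted on either, and how the authors split them is not stated. The copy of mt-Atp6 took 53.0% to 56.4% of the reads of the pair over the 9 libraries, the copy of mt-Co2 54.5% to 55.5%, and the copy of mt-Co3 49.7% to 51.6%. For mt-Nd4l the copy took 51.9% to 62.2% in 8 libraries and 27.5% in REG replicate 1. The copy of mt-Nd3 ranged from 13.2% to 60.5% of its pair, and that of mt-Co1 from 7.86% to 34.7%. The copy of mt-Nd4 took 20.6% of its pair in MUT replicate 3 and under 0.1% in the other libraries. With each copy's value added to its gene, 13 mRNAs were again called lower in MUT than in WT and 12 higher in REG than in MUT. mt-Nd4l then changed by 0.62 in REG against MUT (adjusted p = 0.437). Within the mRNA mix, REG then overlapped with MUT for mt-Nd6 and lay below MUT for mt-Nd4. mt-Atp6 stayed above and mt-Nd4l below all other libraries in REG, whereas mt-Nd4l then overlapped between MUT and WT. mt-Nd3, in turn, no longer did, at 0.954%, 0.799% and 1.07% in WT and 1.29%, 1.74% and 1.08% in MUT.

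Of the 22 tRNAs, 20 were tested and mt-Ts2 and mt-Tl2 failed the filter on low values, which asked for a deposited value of 0.367 or more in at least 3 libraries. For 6 of the 20 no WT library reached that value (mt-Tf, mt-Ti, mt-Ta, mt-Td, mt-Tr and mt-Tt), so they entered only through the other groups, and counts over the tested tRNAs lean toward higher values in MUT or REG. For 8 all 3 WT libraries reached it.

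The glycine tRNA mt-Tg stood at deposited values of 17.6, 12.9 and 21.1 in WT, at 144, 70.7 and 146 in MUT, and at 56.5, 39.1 and 7.21 in REG, and its MUT values rested on 8799, 707 and 6964 estimated reads. All MUT libraries lay above all others, and mt-Tg was the highest tRNA in 6 of the 9 libraries. It rose in MUT against WT by 2.73 ± 0.68 on the log2 scale (SE, limma adjusted p = 0.0141) and fell in REG against MUT by 2.15 ± 0.68 (adjusted p = 0.0328). Its neighbour mt-Co3 moved the other way in both comparisons: mt-Tg reads per 1000 mt-Co3 reads were 91.6, 41.9 and 98.3 in WT and 182, 91.8 and 39.1 in REG, but 7985, 1163 and 12524 in MUT. mt-Tg took 82.1%, 37.0% and 72.8% of all tRNA reads in MUT, against 33.04%, 24.8% and 37.1% in WT. The rise of mt-Tg in MUT kept its call under all 5 other scalings and was lost without WT replicate 2 (adjusted p = 0.060) and with MUT replicate 2 as the only MUT library (adjusted p = 0.232). The fall of mt-Tg in REG was lost under trimmed-mean scaling (-1.45, adjusted p = 0.160) and without MUT replicate 1 (0.108), MUT replicate 3 (0.109), REG replicate 3 (0.0534), WT replicate 1 (0.0514) or WT replicate 3 (0.0507).

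The valine tRNA mt-Tv, which lies between the rRNA genes, was at 1.13, 0.290 and 1.61 in WT, at 7.89, 20.7 and 15.6 in MUT, and at 21.8, 17.2 and 0.244 in REG. The methionine tRNA mt-Tm was at 0.619, 0.527 and 0.602 in WT, at 3.36, 12.2 and 6.13 in MUT, and at 8.55, 6.96 and 0.268 in REG. In both, REG replicates 1 and 2 were as high as MUT while REG replicate 3 was below every WT library. mt-Tv rose in MUT against WT by 3.49 ± 1.16 (SE, limma adjusted p = 0.0412) and mt-Tm by 2.82 ± 0.89 (adjusted p = 0.0330), although both rRNAs around mt-Tv and the mRNA after mt-Tm fell. The call of mt-Tv was lost under trimmed-mean scaling (adjusted p = 0.078), and that of mt-Tm too (0.075). Each of the 2 calls also depended on single libraries: mt-Tv did not pass when any WT or MUT library was left out (adjusted p from 0.0573 to 0.139), and mt-Tm did not pass when any of these was left out (0.0738 to 0.0953) except MUT replicate 1. The histidine tRNA mt-Th had a larger change of 3.97 ± 1.49 that did not pass (adjusted p = 0.0614), with values of 0.480, 0.211 and 0.530 in WT, of 3.48, 50.8 and 8.23 in MUT, and of 31.8, 52.3 and 0.268 in REG. In the authors' deposited table mt-Th did pass, with an FDR of 0.041.

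The serine tRNA mt-Ts1 and the glutamate tRNA mt-Te, both on the minus strand, went the other way. mt-Ts1 stood at 15.3, 21.3 and 12.98 in WT, at 3.62, 0.998 and 2.43 in MUT, and at 2.83, 18.4 and 8.58 in REG. mt-Te stood at 9.22, 12.7 and 10.1 in WT, at 3.65, 2.10 and 4.70 in MUT, and at 8.12, 7.12 and 6.24 in REG. The MUT values of both lay below all WT values. On the deposited scale mt-Ts1 fell by 2.74 ± 0.63 and mt-Te by 1.57 ± 0.36 (SE, limma adjusted p = 0.0106 for both), but under total-read scaling neither passed (-1.62, adjusted p = 0.109, and -0.41, adjusted p = 0.539). mt-Ty, the tyrosine tRNA, was called higher in REG than in MUT only at the edge of the threshold, with a change of 2.31 ± 0.82 (limma adjusted p = 0.04999), and mt-Te just missed it (1.02 ± 0.36, limma adjusted p = 0.05002). mt-Ty had 0 reads in MUT replicate 2, and its call was lost without any 1 of 7 libraries, all but MUT replicate 1 and REG replicate 3. Without WT replicate 2 the call of mt-Te in MUT was lost as well (adjusted p = 0.0546).

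The 8 tRNAs on the minus strand, called light-strand genes, took 58.4%, 70.4% and 53.8% of all tRNA reads in WT, but 7.58%, 7.32% and 7.16% in MUT and 25.4%, 24.7% and 65.2% in REG. In WT mt-Ts1 took 28.7%, 40.8% and 22.8% of all tRNA reads, and mt-Te 17.3%, 24.25% and 17.7%. They made up most of the minus-strand share there. Of the 8, 4 had a log2 change above 0 in MUT against WT (median -0.24). The plus-strand mt-Tg took 82.1%, 37.0% and 72.8% of tRNA reads in MUT, which lowers the share left to all others. The 3 MUT libraries were close to each other in the minus-strand share, though far apart in that of mt-Tg, and REG replicate 3 lay with WT in the minus-strand share. The background share of the reads, up to 0.866% in WT and REG and 7.86% to 23.2% in MUT, differed between the groups as well, and its part was not tested. In 10 of the 20 tRNAs tested every MUT library lay above every WT library, and in 2 below, where 32.6% and 25.9% of all genes tested did so. Among the 10 are mt-Ti, mt-Ta and mt-Tt, which entered the test only through the other groups, so the count leans upward. Of the 20 tested, mt-Tg, mt-Tv and mt-Tm passed as higher and mt-Ts1 and mt-Te as lower, so most single tRNAs did not reach the threshold. Neither count was a larger share than the 20.5% and 14.6% called over all genes.

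**Figure D5:**
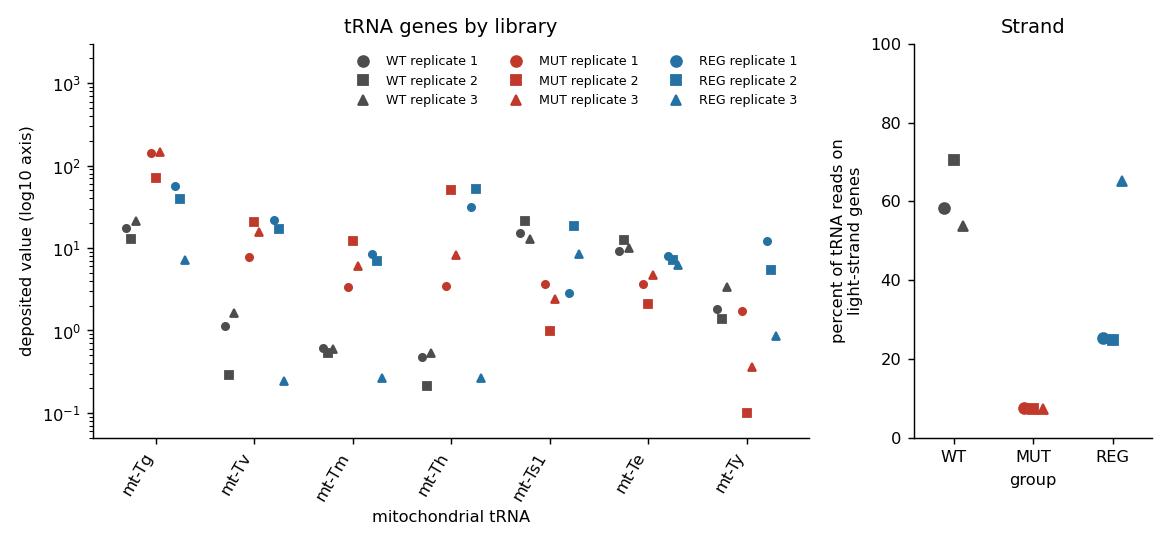
Deposited values (log10 axis) of mt-Tg, mt-Tv, mt-Tm, mt-Th, mt-Ts1, mt-Te and mt-Ty in each library, by group, with the percent of tRNA reads on light-strand genes, those annotated on the minus strand, beside them. The MUT points lie above WT for the first 4 and below WT for mt-Ts1 and mt-Te, and the minus-strand share is 7.16% to 7.58% in MUT.

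For the nuclear subunits of the respiratory complexes, the sign of the median change in MUT turned with the scaling, but the median of all genes moved too. Of the nuclear subunits of complex I, 8 of 38 were lower and 0 higher in MUT than in WT, of complex III 2 of 9, of complex IV 3 of 10 and of complex V 4 of 15. The medians of these 4 lists were -1.02, -0.97, -0.84 and -0.83 on the deposited scale, but 0.06, 0.15, 0.21 and 0.37 under total-read scaling, where 1 complex I gene was lower and 2 complex I and 3 complex V genes were higher. Complex II, which has no mitochondrial subunit, had 0 of 4 called and a median of -1.14, or 0.03 under total-read scaling. The mitochondrial mRNAs were at -3.32 and -2.09 on the same scales, and the median of all genes was at 0.18 and 1.11. The medians of these nuclear lists thus lay below that of all genes tested on both scales. That distance depends on which genes are counted. With a filter 10 times stricter on the deposited scale, the median over the 11449 genes tested was -0.99. The medians of these lists under that filter are not given here, so no difference from genes of higher value is shown. Under total-read scaling 11734 of 30353 genes tested were higher and 876 lower. Ndufb6, an accessory subunit of complex I, fell by 2.04 (limma adjusted p = 0.0031) and by 1.31 under total-read scaling (limma adjusted p = 0.0231). Atp5a1, the alpha subunit of complex V, fell by 1.83 (adjusted p = 0.00558) and did not pass under total-read scaling (-0.59, adjusted p = 0.226).

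Among genes for transcription and upkeep of mitochondrial DNA, 2 of 22 were lower in MUT and 0 higher, namely Polrmt, the mitochondrial RNA polymerase (-1.78 ± 0.53, limma adjusted p = 0.0282), and Polg, the DNA polymerase (-1.45 ± 0.36, adjusted p = 0.0141). Neither passed under total-read scaling (adjusted p = 0.471 and 0.617). Beside the 14.6% of all genes that were lower, these 2 of 22 are no larger a share, nor are the counts of the next 2 lists. Of 28 genes for mitochondrial RNA processing and decay 4 were lower, among them Trnt1, which adds the CCA end to tRNAs (-1.78, adjusted p = 0.00719), and under total-read scaling 0 were lower and 2 higher. Of 78 mitochondrial ribosomal proteins 8 were lower and 1 higher, or 2 lower and 12 higher under total-read scaling. On that scale 11734 of 30353 genes tested were higher and 876 lower, so neither list's higher count is a larger share. Of the 8 regulators of mitochondrial biogenesis the 3 of smallest p are given, and Gabpa and Ppargc1a changed most among these 3. Gabpa, a subunit of nuclear respiratory factor 2, had a deposited value of 558 ± 44.9 in WT (SD, n = 3), of 35.2 ± 15.7 in MUT and of 269 ± 102 in REG. In MUT against WT it fell by 4.07 ± 0.44 (limma adjusted p = 0.000864), and by 2.83 under total-read scaling (adjusted p = 0.00334). Ppargc1a, a coactivator that drives mitochondrial biogenesis, went from 0.974 ± 0.329 in WT to 23.9 ± 10.1 in MUT and 6.15 ± 5.56 in REG. In MUT against WT that was a rise of 4.13 ± 0.70 (limma adjusted p = 0.00307) and of 5.27 under total-read scaling. Pprc1 fell by 2.04 ± 0.38 (limma adjusted p = 0.00441) and did not pass under total-read scaling (-0.86, adjusted p = 0.193).

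In REG against MUT, 20 of 38 complex I, 6 of 9 complex III, 7 of 10 complex IV and 9 of 15 complex V nuclear subunits were called higher and 0 lower, with medians of 1.79, 2.31, 1.90 and 1.82. Under total-read scaling 6, 3, 3 and 5 were higher and 1 complex V gene lower, with medians of 1.14, 1.65, 1.14 and 0.97. Over all genes on that scale 982 of 30353 were higher and 11455 lower, with a median of -1.04. In the same comparison 9 of the 12 skeletal muscle genes, from a tissue rich in mitochondria, were higher, with a median of 3.16. Of 22 transcription and maintenance genes 1 was higher, with a median of 0.08, or -0.68 under total-read scaling. The part of muscle RNA in the change of the nuclear subunits was not tested.

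The authors' deposited table gave nearly the same member calls at FDR under 0.05, with 13 mRNAs and 2 rRNAs lower and 4 tRNAs higher and 2 lower in MUT than in WT. In REG against MUT it had 12 mRNAs and 2 rRNAs higher, 2 tRNAs higher (mt-Ty and mt-Ts1) and 1 lower. That table and the tests above rest on the same 9 libraries.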

How the data were processed

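Total RNA of the coronal suture was sequenced as single-end reads of 75 cycles, from RNA with an integrity number above 9 per the labels' protocols. Alignment used STAR 2.6.1d against mm10, with Partek, per the submitters' processing notes. How reads were counted and normalized, and with which annotation, is not given in the sources used here. Without gene names, the authors' deposited matrix holds an upper-quartile scaled read signal per gene and library. From its values, each is an estimated read number plus 1, times a library factor. Genes were assigned in the order of the authors' gene table, whose 4 summary statistics matched for 43644 of 43644 genes (relative tolerance 1e-06). The same deposited table holds the authors' p-value and FDR, log2 ratio and least-squares mean signal per group.

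All 9 libraries entered 1 fit with limma 3.58.1 (R 4.3.3) on log2(value + 0.367), the constant being 1 millionth of the median library sum. A gene was tested with that value or more in 3 or more libraries (29107 genes), and called at a two-sided Benjamini-Hochberg adjusted p under 0.05. Log2 changes of low genes are understated on this scale. Values are given per library, with sums and shares as descriptions. The spread behind each p-value is that between libraries, which may be technical. Python 3.11.15 was used for tables and figures, and positions and sequences are from GENCODE M21 (GRCm38).

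Every gene with the mt- prefix was named, tRNAs with all values where called; from each list of nuclear genes at most 3 members of smallest p in MUT against WT were eligible. The members and lists were chosen with earlier results of these data known. Alternatives were 5 other scalings (1 with background subtracted), other filters and pseudocounts, limma with trend or array weights, the compared groups alone, a replicate block, single libraries left out, and MUT replicate 2 or REG replicate 3 alone. Adding the values of nuclear copies was chosen after seeing the data.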

Additional observations from a re-analysis of the deposited data

How the results depend on the processing

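Main counts were 13 mRNAs and 2 rRNAs lower, and 3 tRNAs higher and 2 lower, in MUT against WT; 12 mRNAs and 2 rRNAs higher, and 1 tRNA higher and 1 lower, in REG against MUT; and 0 in REG against WT. For MUT against WT, MUT replicate 2 alone gave 4 mRNAs, 1 rRNA and 0 higher tRNAs, and quantile scaling and limma with trend gave 1 rRNA each. Higher tRNAs numbered 1 under trimmed-mean scaling, without a filter and with a pseudocount 10 times higher, 7 under total-read scaling, 6 under scaling to non-mitochondrial reads, 5 with background subtraction and with array weights, 9 with only the 2 groups compared and 8 with REG replicate 3 alone. Over all genes, 11734 of 30353 were higher under total-read scaling, 10257 of 29541 under non-mitochondrial scaling and 9944 of 29107 with array weights. Beside these, the tRNA counts of 20 tested were no larger a share. They were a larger share with background subtraction (3425 of 24220 genes) and with only the 2 groups (7748 of 27494, 16 tRNAs tested). The same held under quantile scaling, with 3 of 19 tRNAs and 2537 of 28334 genes higher. It also held with a filter 10 times stricter, with 4 of 7 tRNAs and 910 of 11449 genes higher, and with REG replicate 3 alone. Lower tRNAs numbered 1 with quantile scaling, and 0 with total-read scaling, scaling to non-mitochondrial reads and background subtraction. For REG against MUT, quantile scaling and background subtraction gave 6 mRNAs each, MUT replicate 2 alone gave 0 mRNAs, 0 rRNAs, 0 higher and 0 lower tRNAs, and quantile scaling and limma with trend gave 1 rRNA each. Higher tRNAs then numbered 3 of 18 tested under trimmed-mean scaling, where 6062 of 25476 genes were higher. With trend they numbered 2 of 20, where 3330 of 29107 genes were higher, so neither count is a larger share. They numbered 0 under total-read and non-mitochondrial scaling, background subtraction, a filter 10 times stricter and only the 2 groups. Lower tRNAs numbered 0 under trimmed-mean scaling and with only the 2 groups. With REG replicate 3 as the only REG library the tRNA median was -1.425, with all genes at -0.05. The cause of these changes was not tested.

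With 1 library left out at a time, MUT against WT gave 13 to 13 mRNAs, 2 to 2 rRNAs, 0 to 9 higher and 1 to 2 lower tRNAs. REG against MUT gave 7 to 12 mRNAs, 2 to 2 rRNAs, 0 to 4 higher and 0 to 1 lower tRNAs. REG against WT gave 0 to 1 mRNAs, 0 to 0 rRNAs, 0 to 10 higher and 0 to 0 lower tRNAs, the 1 and the 10 without REG replicate 3, as were the 9 and the 4 above. No higher tRNA was called in MUT against WT without WT replicate 2. Without REG replicate 3, 20 tRNAs were tested, and the 9 and the 4 were larger shares than those over all genes. Of 29097 genes, 6506 were then higher in MUT than in WT and 3105 higher in REG than in MUT. The 10 tRNAs higher in REG than in WT stood beside 410 of these genes.

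Deviations of same-numbered libraries correlated from -0.196 to 0.10, and those of differently numbered ones from -0.218 to 0.379. With 3 libraries per group these values cannot show whether replicate numbers pair the samples. With a replicate block, MUT against WT gave 13 mRNAs, 2 rRNAs, 2 higher and 2 lower tRNAs, and REG against MUT gave 12, 2, 1 and 1. No call of an mRNA or rRNA changed sign under the alternatives run for MUT against WT (208 and 32 values, of which 14 and 3 lost the call). For REG against MUT 35 of 208 mRNA values lost it and 2 gained it, and mt-Nd4l, never called in the main comparison, had 1 value below 0 (-0.16, with background subtraction). Mean class shares stayed within 1 SD with background subtraction, with deposited values in place of estimated reads and with each library left out. Low read numbers limit the tRNAs, of which mt-Ty had 0 reads in MUT replicate 2.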
